A study of Homo sapiens with 16 samples.

Results

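The genes described here are the mitochondrial ribosomal protein genes, taken as every gene whose symbol begins with MRPL or MRPS and a digit and that had a probe detected at a detection p under 0.01 on at least 2 of 16 arrays. They numbered 79 of the 10163 genes tested. Of these, 76 were protein-coding, 48 with an MRPL symbol (large subunit) and 28 with an MRPS symbol (small subunit), and 3 were noncoding, the antisense gene MRPL20-AS1 and the pseudogenes MRPL42P5 and MRPS31P5. Of the 76 coding genes, 75 were detected on all 16 arrays and MRPS14 on 14. Counts below are over the 76 coding genes, and the noncoding ones are described on their own.

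The arrays came from MM1.S, an established human multiple myeloma cell line, grown in log phase and exposed to 1 uM dexamethasone, a synthetic glucocorticoid, for 4 h or for 0 h, the untreated state. At each time RNA was taken as 3 pools of sucrose-gradient polysome fractions, named A, B and C, and as total RNA, which gave 8 groups of 2 Illumina arrays. All cells were of this 1 line, and the labels do not say which part of the gradient each pool spans or that the arrays of a group came from separate cultures, so p-values measure only the spread between these arrays. A difference between a pool and total RNA is one of relative level within equal inputs of labelled RNA, not of the number of transcripts loaded on ribosomes.

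Mitochondrial ribosomes stand apart from cytosolic ribosomes: they translate the few messenger RNAs of the mitochondrial genome, which code for membrane subunits of the oxidative phosphorylation complexes. Their RNAs are made in the mitochondrion, but every one of their proteins is encoded in the nucleus, translated on cytosolic ribosomes and imported. The MRPL and MRPS messenger RNAs therefore pass through the same polysomes as any other nuclear transcript, whereas messenger RNAs of the cytosolic ribosome mostly begin with a terminal oligopyrimidine tract that ties their translation to growth signals.

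The start sites of the transcripts whose pool profiles carry the results are shown first, since a leading pyrimidine tract is the feature that sets the cytosolic ribosomal protein transcripts apart. Each line runs 5′ to 3′ on the strand of the gene, from 50 bases before to 25 bases after the start of the RefSeq transcript on GRCh38.p14, and the capitals mark the first 5 transcribed bases. The first 5 genes were higher in pool C than in pool A, and the other 5 were lower in pool C than in pool A with quantile normalization.
MRPL24, chr1:156741064-156741138, minus strand: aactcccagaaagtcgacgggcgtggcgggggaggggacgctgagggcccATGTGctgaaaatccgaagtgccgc
MRPS34, chr16:1773110-1773184, minus strand: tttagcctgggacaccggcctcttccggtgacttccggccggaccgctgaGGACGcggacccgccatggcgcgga
MRPL4, chr19:10251901-10251975, plus strand: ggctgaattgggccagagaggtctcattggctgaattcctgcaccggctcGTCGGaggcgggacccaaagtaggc
MRPS23, chr17:57850020-57850094, minus strand: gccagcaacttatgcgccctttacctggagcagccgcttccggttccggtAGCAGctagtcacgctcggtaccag
MRPL16, chr11:59810754-59810828, minus strand: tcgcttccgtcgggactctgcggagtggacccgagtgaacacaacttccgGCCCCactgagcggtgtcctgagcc
MRPL57, chr13:21176608-21176682, plus strand: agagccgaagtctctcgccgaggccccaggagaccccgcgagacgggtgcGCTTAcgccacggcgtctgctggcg
MRPL33, chr2:27771669-27771743, plus strand: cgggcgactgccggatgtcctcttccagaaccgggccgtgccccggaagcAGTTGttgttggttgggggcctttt
MRPS25, chr3:15065291-15065365, minus strand: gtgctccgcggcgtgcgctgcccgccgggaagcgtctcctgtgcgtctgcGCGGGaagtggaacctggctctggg
MRPS21, chr1:150293811-150293885, plus strand: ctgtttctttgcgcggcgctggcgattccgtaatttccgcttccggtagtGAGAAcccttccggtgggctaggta
MRPS33, chr7:141014928-141015002, minus strand: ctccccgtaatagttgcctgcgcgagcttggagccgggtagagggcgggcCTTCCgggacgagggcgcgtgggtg

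Of these 10, MRPS33 alone began with a C followed by 4 pyrimidines. Start sequences were found for 68 of the 76 genes, and 5 of them (MRPL44, MRPL45, MRPL53, MRPS27 and MRPS33) began that way, 7.35% against 63.8% of 69 cytosolic ribosomal protein genes and 4.6% of 15843 genes in the RefSeq table. In the window from 250 bases before to 50 after the start, searched on both strands, the ETS-type letters CCGGAAG, which the nuclear respiratory factor GABP binds, occurred in 28 of 68 genes, 41.2% against 33.3% of cytosolic ribosomal protein genes and 14.2% of all genes. The YY1-type letters AAGATGGCG occurred in 13 of 68 genes, 19.1% against 8.7% and 2.74%. The NRF1-type letters GCATGCGC occurred in 6, 8.82% against 4.35% and 4.26%, and TATAAA in 2, 2.94% against 10.1% and 9.63%. The letters CCGGAAG end and AAGATGGCG begins with AAG, so these motifs can overlap there. CCAAT was found in 27.9% of the genes against 36.4% of all. These matches describe the letters of the windows and not binding.

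The opposite pool profiles of MRPS34 and MRPL33 came from genes that both hold CCGGAAG or its reverse complement close to the start, and these 2 upstream windows are printed with those letters in capitals, from 250 bases before to 25 bases after the start. MRPS34 had 3 matches, starting 71, 29 and 19 bases before the transcript start, and MRPL33 had 1, starting 8 bases before it.
MRPS34, chr16:1773110-1773384, minus strand: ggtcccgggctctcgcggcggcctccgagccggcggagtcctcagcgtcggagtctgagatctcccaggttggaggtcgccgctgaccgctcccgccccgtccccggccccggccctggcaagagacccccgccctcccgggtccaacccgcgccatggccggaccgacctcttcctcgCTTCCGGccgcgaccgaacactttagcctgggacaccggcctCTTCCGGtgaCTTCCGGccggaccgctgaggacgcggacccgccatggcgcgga
MRPL33, chr2:27771469-27771743, plus strand: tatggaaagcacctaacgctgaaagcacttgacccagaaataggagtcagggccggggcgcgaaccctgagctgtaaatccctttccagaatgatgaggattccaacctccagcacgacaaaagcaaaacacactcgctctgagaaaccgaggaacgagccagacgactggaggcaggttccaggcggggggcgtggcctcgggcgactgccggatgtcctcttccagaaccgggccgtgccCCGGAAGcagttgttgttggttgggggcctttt

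Probes were detected at p under 0.01 for 26.1% to 31.3% of the array, and correlations between arrays of a group lay between 0.966 and 0.991. All 10 plasma cell and myeloma markers were detected on 16 arrays, while all 3 monocyte markers, all 4 stromal markers, 2 of 3 T cell markers (CD3D and CD3E), 2 of 3 other B cell markers (MS4A1 and PAX5) and the erythroid marker HBA1 were detected on 0. The B cell marker CD22 was detected on 2 arrays, the T cell marker CD2 on 1 and the erythroid marker HBB on all 16, whose part in the results was not tested. The 4 arrays at 0 h whose column name begins with X were high for glucocorticoid-induced genes: TSC22D3, a glucocorticoid-induced leucine zipper gene, stood in total RNA at 13.29 and 13.43 at 4 h, against 10 and 12.38 at 0 h, the last being the X array. Member counts in every comparison are given with and without these 4 arrays. In bulk RNA, fewer cells with a transcript and less of it per cell cannot be told apart.

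In pool C, most of the mitochondrial ribosomal protein genes stood above their level in total RNA. Levels are log2 intensities after background correction and quantile normalization, and differences are means over both times with their standard error (n = 4 arrays a kind), tested with limma and Benjamini-Hochberg adjustment over all 10163 genes at an adjusted p of 0.05. Of the 76 genes, 51 were higher and 5 lower in pool C than in total RNA, against 24.4% and 22.8% of all genes. The median difference of the 76 was 0.58, against 0.07 for all genes. Because the 3 pools and total RNA may hold different amounts of messenger RNA, each comparison was repeated with median scaling and with the deposited value table. Median scaling gave 65 higher and 3 lower, against 40.3% and 16.2% of all genes. The deposited table gave 62 higher and 3 lower, against 32.5% and 15.3%. The 51 genes called higher with quantile normalization were also called higher in both others, against 24.1% of all genes, and 3 genes (MRPL33, MRPS25 and MRPS16) were lower in all 3 scalings, against 13.2% of all genes.

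MRPS34, a small-subunit protein specific to the mitochondrial ribosome, was the most enriched member. Its level, with the 4 h arrays before the 0 h arrays here and below, was 10.76, 10.28, 10.81 and 10.57 in pool C, against 8.55, 8.67, 8.92 and 9.02 in total RNA. The lowest pool C array lay above the highest total RNA array, and the difference was 1.81 ± 0.19 (SE), 3.52-fold (limma adjusted p = 8.56e-06). Genes were picked in the pool comparisons partly for arrays that do not overlap, so non-overlap adds no further support there. MRPL16, the counterpart of a bacterial large-subunit protein close to the peptidyl transferase centre, stood at 11.48, 11.58, 11.75 and 11.62 in pool C, against 10.44, 10.47, 10.54 and 10.56 in total RNA. All pool C arrays were above all total RNA arrays, by 1.11 ± 0.12 (2.15-fold, adjusted p = 1.35e-05). MRPL17 stood at 11.31, 10.91, 11.59 and 11.84 in pool C, against 10.4, 10.12, 10.4 and 9.96 in total RNA, again without overlap, a difference of 1.19 ± 0.17 (2.28-fold, adjusted p = 0.000114). MRPL9, MRPL19, MRPL13 and MRPL28 were also higher, with differences of 1.21, 1.16, 1.10 and 1.09, all large-subunit proteins with bacterial counterparts.

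The 3 genes that fell in every scaling belong to both subunits. MRPL33, a small large-subunit protein with a bacterial counterpart, stood at 11.33, 11.02, 11.84 and 11.03 in pool C, against 12.48, 12.57, 12.87 and 12.28 in total RNA. The groups did not overlap, and the difference was -1.24 ± 0.19 (2.37-fold lower, adjusted p = 0.000204), or -0.56 with median scaling and -0.64 in the deposited table. MRPS25, a small-subunit protein, stood at 7.19, 7.68, 7.85 and 7.76 in pool C, against 8.6, 8.67, 8.52 and 8.67 in total RNA. All its pool C arrays were below its total RNA arrays, by -0.99 ± 0.18 (adjusted p = 0.000701). MRPS16, a small-subunit protein with a bacterial counterpart, stood at 8.66, 8.62, 8.9 and 8.97 in pool C, against 10.04, 9.85, 9.7 and 9.42 in total RNA, a difference of -0.97 ± 0.13 without overlap (adjusted p = 7.19e-05).

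**Figure D1:**
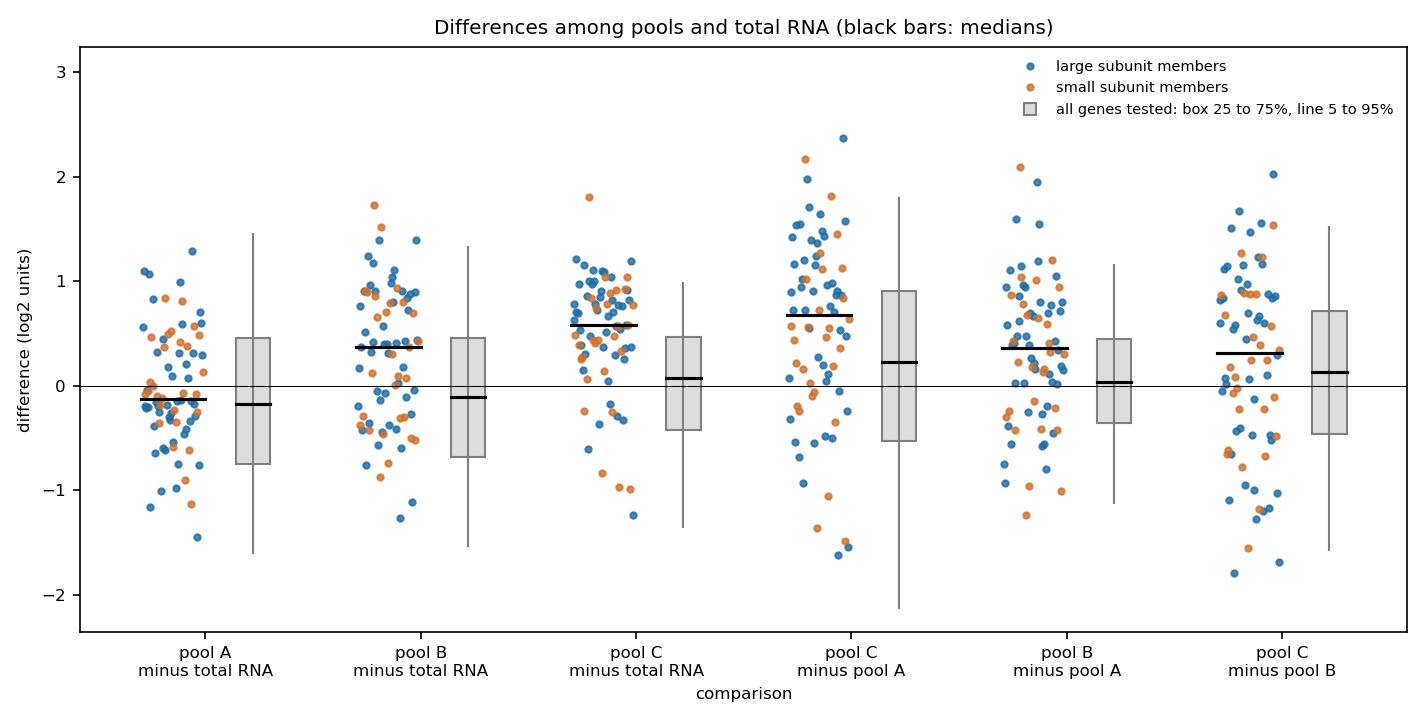
Log2 differences of the 76 coding genes in the 6 comparisons among pools and total RNA, each averaged over both times. Dots are single genes; the box spans the 25th to 75th and the line the 5th to the 95th percentile of all genes tested. In pool C against total RNA the median of the 76 genes is 0.58, against 0.07 for all genes.

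Against pool A, pool C gave wider differences. With quantile normalization 45 genes were higher and 12 lower, against 41.1% and 26.7% of all genes, and the median was 0.67 against 0.23. Median scaling gave 69 higher and 2 lower, against 68% and 12.3% of all genes. In the deposited values 60 were higher and 6 lower, against 46.4% and 19.4%. In all 3 scalings 45 were higher and 2 lower (MRPL57 and MRPL33), against 37.1% and 12.2% of all genes, so the share that rose lay above that of all genes and the share that fell below it. Median scaling raised the median of all genes in this comparison to 1.08, so each gene is best read against that.

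MRPL24, a large-subunit protein with a bacterial counterpart that starts subunit assembly in bacteria, had the largest rise. It stood at 12.76, 12.65, 12.5 and 12.41 in pool C, 10.65, 10.61, 10.51 and 10.43 in pool B and 10.07, 10.27, 10.11 and 10.41 in pool A, against 11.74, 11.71, 11.59 and 11.61 in total RNA. Pool C lay above total RNA, and pools A and B lay below it, without overlap. Pool C exceeded pool A by 2.37 ± 0.12 (5.16-fold, adjusted p = 4.1e-09), and the difference was 3.35 with median scaling and 2.53 in the deposited table. MRPS34 followed at 2.17 ± 0.19 (4.5-fold, adjusted p = 2.71e-07), with pool A arrays at 7.95, 8.52, 8.37 and 8.89.

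MRPL4, the counterpart of a bacterial protein at the exit tunnel, stood at 10.23, 9.95, 10.25 and 9.7 in pool C, against 8.08, 7.74, 8.48 and 7.89 in pool A. The groups were apart by more than a unit, with a difference of 1.98 ± 0.21 (3.95-fold, adjusted p = 2.26e-06). MRPS23 stood at 10.58, 10.44, 10.66 and 10.46 in pool C, against 8.63, 8.87, 8.58 and 8.79 in pool A, a difference of 1.82 ± 0.15 (3.53-fold, adjusted p = 1.59e-07). MRPL16 rose by 1.71 ± 0.12 (3.26-fold, adjusted p = 4.63e-08), and MRPL28, MRPL40, MRPL19, MRPL3 and MRPL41 by 1.64, 1.58, 1.55, 1.54 and 1.48.

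At the other end, MRPL57, a small mitochondria-specific large-subunit protein, stood at 7.26, 6.66, 7.3 and 6.82 in pool C, against 8.8, 8.52, 8.78 and 8.42 in pool A. The groups did not overlap, and the difference was -1.62 ± 0.17 (3.07-fold lower, adjusted p = 2.28e-06), -0.57 with median scaling and -0.79 in the deposited table. MRPL33 differed by -1.54 ± 0.19 (2.9-fold lower, adjusted p = 9.41e-06). MRPS25 (-1.49 ± 0.18), MRPS21 (-1.36 ± 0.14) and MRPS33 (-1.06 ± 0.14) were lower with quantile normalization but not called in all 3 scalings, being -0.3, -0.25 and -0.02 with median scaling. MRPL11, the counterpart of a bacterial protein of the factor-binding stalk base, was lower by -0.93 ± 0.19 with quantile normalization (adjusted p = 0.000606), -0.33 in the deposited table and 0.28, the opposite sign, with median scaling. The same reversal under median scaling was seen for MRPL42 and MRPL50, at 0.64 and 0.78.

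**Figure D2:**
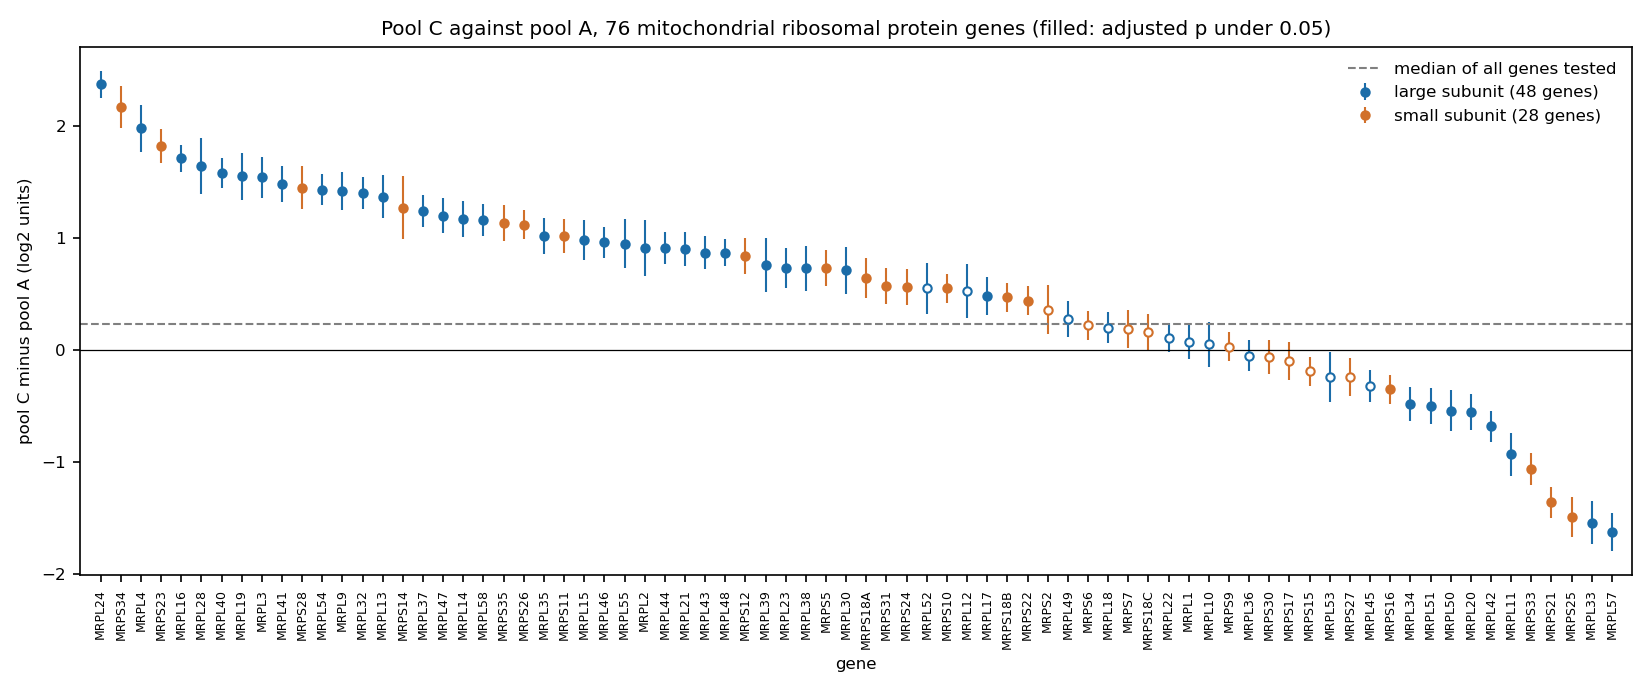
Log2 difference between pool C and pool A for each of the 76 genes in rank order, with standard errors, under quantile normalization; filled points have an adjusted p under 0.05, and blue marks large-subunit and orange small-subunit symbols. MRPL24 tops the order at 2.37 and MRPL57 ends it at -1.62; the dashed line is the median of all genes, 0.23.

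By symbol and with quantile normalization, 33 of 48 large-subunit genes were higher and 2 lower in pool C than in total RNA, with a median of 0.7. Of 28 small-subunit genes, 18 were higher and 3 lower, with a median of 0.46. The shares of all genes were 24.4% higher and 22.8% lower. Against pool A the large subunit had 30 higher and 8 lower (median 0.87) and the small subunit 15 higher and 4 lower (median 0.45). The shares of all genes there were 41.1% higher and 26.7% lower. In all 3 scalings the large subunit had 30 higher and 2 lower against pool A and the small subunit 15 and 0, against 37.1% and 12.2% of all genes. MRPS18A and MRPS30, which sit in the large subunit despite their symbols, were 0.77 and 0.44 higher in pool C than in total RNA. The difference between the subunits was not tested. The genes were also sorted by whether the number in the symbol falls within the bacterial range, a split chosen after the values were seen. Those inside the range had medians in pool C against total RNA of 0.76 (MRPL) and 0.53 (MRPS), and those outside it 0.58 and 0.44. The number need not tell whether a gene has a bacterial counterpart.

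Pool B against total RNA divided the genes. With quantile normalization 33 were higher and 14 lower, against 24.6% and 34.2% of all genes, and the median was 0.37 against -0.11. With median scaling 28 were higher and 25 lower, against 15.1% and 48.6% of all genes, and the median was -0.09 against -0.44. In the deposited values 28 were higher and 27 lower, against 13.5% and 41.2%, and the median was -0.12 against -0.18. The sign of the median of the 76 genes thus depended on the scaling. In all 3 scalings 27 were higher and 14 lower, against 13% and 30.6% of all genes. MRPS34 (1.73 ± 0.19, adjusted p = 6.46e-06) and MRPS17 (1.52 ± 0.17, adjusted p = 8.49e-06) were highest. MRPS17, a small-subunit protein with a bacterial counterpart, stood at 12.13, 11.94, 11.99 and 12.28 in pool B, against 10.57, 10.35, 10.8 and 10.54 in total RNA, without overlap. MRPL53, MRPL52, MRPL42 and MRPL11 were higher by 1.40, 1.40, 1.24 and 1.18.

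Among the genes that fell in pool B, MRPL39 stood at 8.54, 8.89, 7.96 and 8.55 in pool B, against 9.64, 9.88, 9.56 and 9.93 in total RNA. The arrays did not overlap, and the difference was -1.27 ± 0.24 (2.41-fold lower, adjusted p = 0.000488). MRPL24 was lower by -1.11 ± 0.12 (2.16-fold, adjusted p = 8.52e-06). MRPS9, a small-subunit protein with a bacterial counterpart, stood at 8.7, 9.1, 8.54 and 8.59 in pool B, 9.91, 10.04, 9.98 and 9.94 in pool A and 10.23, 10.02, 9.88 and 9.89 in pool C, against 9.66, 9.52, 9.58 and 9.63 in total RNA. Pool B was the low pool for this gene, by -0.87 ± 0.13 against total RNA (adjusted p = 9.04e-05) and -1.24 ± 0.13 against pool A (adjusted p = 1.01e-05).

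Pool A against total RNA gave 18 higher and 15 lower with quantile normalization, against 24.5% and 37% of all genes. With median scaling 0 were higher and 50 lower, against 9.43% and 60.7% of all genes. In the deposited values 10 were higher and 26 lower, against 20.4% and 35.3% of all genes. In all 3 scalings 0 were higher and 14 lower, against 9.21% and 30.6% of all genes. The 14 included MRPL24, lower by -1.45 ± 0.12 (2.73-fold, adjusted p = 7.49e-07), and MRPL3, by -1.16 ± 0.18 (adjusted p = 9.89e-05). MRPL57 was higher in pool A by 1.29 ± 0.17 with quantile normalization (2.45-fold, adjusted p = 2.85e-05) and by 0.39 and 0.62 in the other scalings, not called in all 3.

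**Figure D3:**
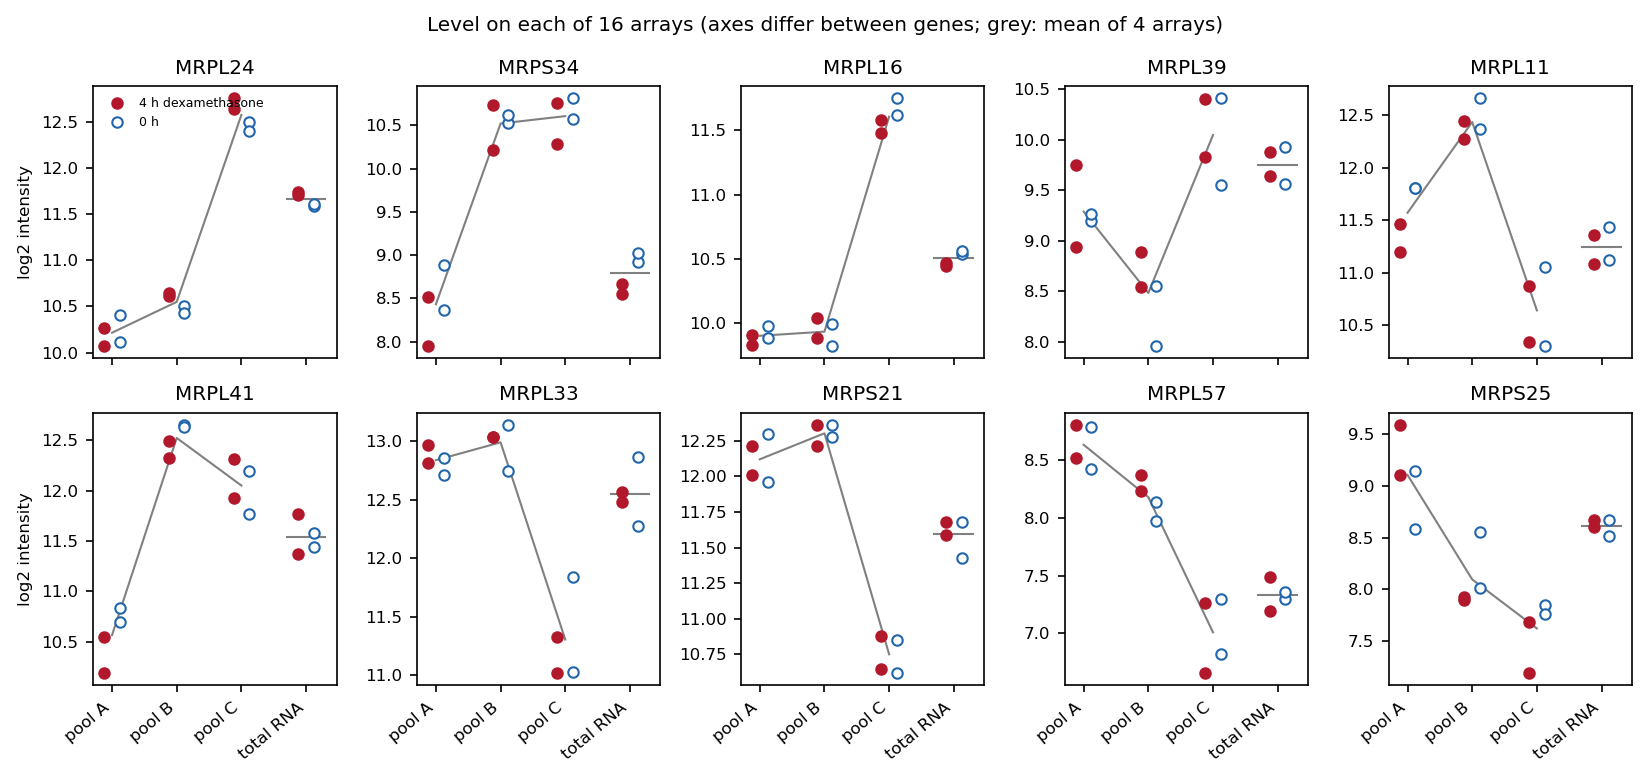
Log2 intensity of 10 genes on each of the 16 arrays by pool and total RNA; red filled points are 4 h arrays, blue open points 0 h arrays and grey lines the mean of 4 arrays, and the vertical axes differ. MRPL24 peaks in pool C, MRPL11 in pool B, and MRPL57 is high in pool A and lower in pools B and C.

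Pool C against pool B gave 37 higher and 19 lower with quantile normalization, against 34.3% and 24.6% of all genes. With median scaling there were 51 and 7, against 58% and 11.6% of all genes. In the deposited table there were 50 and 8, against 49.5% and 11.2%. In all 3 scalings 37 were higher and 7 lower, against 32.9% and 10.2% of all genes. MRPL24 (2.03 ± 0.12), MRPL16 (1.67 ± 0.12) and MRPL39 (1.56 ± 0.24) led the higher genes, with adjusted p of 5.45e-08, 1.49e-07 and 8.21e-05. The lower genes were MRPL11 (-1.79 ± 0.19), MRPL33 (-1.69 ± 0.19), MRPS21 (-1.55 ± 0.14), MRPL34, MRPL51, MRPS33 and MRPL57. MRPL11 stood at 10.87, 10.34, 11.05 and 10.3 in pool C, against 12.44, 12.27, 12.66 and 12.37 in pool B, without overlap. MRPS21 stood at 10.88, 10.65, 10.85 and 10.62 in pool C, against 12.21, 12.36, 12.28 and 12.36 in pool B, without overlap as well.

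Pool B against pool A gave 36 higher and 11 lower with quantile normalization, against 23% and 18.9% of all genes. With median scaling there were 50 and 4, against 33.8% and 9.26% of all genes. In the deposited table there were 24 and 17, against 9.1% and 21.4%. In all 3 scalings 24 were higher, against 9.09% of all genes, and 4 lower (MRPS9, MRPS25, MRPS30 and MRPL45), against 9.07%. MRPL41, a mitochondria-specific large-subunit protein, stood at 12.32, 12.49, 12.65 and 12.63 in pool B, against 10.19, 10.55, 10.69 and 10.83 in pool A. The groups were well apart, with a difference of 1.95 ± 0.16 (3.87-fold, adjusted p = 9.47e-07), and MRPS34 was higher still at 2.09 ± 0.19 (4.24-fold, adjusted p = 2.2e-06).

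Taking the tests among pools, 30 genes were above both other pools in pool C, 39.5% against 28.6% of all genes, 12 in pool B, 15.8% against 7.63%, and 2 in pool A (MRPL50 and MRPS25), 2.63% against 12.6%. The other 32 had no pool above both others. Pool A was below both other pools for 24 genes, 31.6% against 15.2% of all genes, pool B for 9, 11.8% against 5.78%, and pool C for 11, 14.5% against 18.2%; these counts are with quantile normalization. By the highest mean alone, 43 of the 76 peaked in pool C, 56.6% against 47.8% of all genes, 27 in pool B, 35.5% against 23.8%, and 6 in pool A, 7.89% against 28.4%. The cytosolic ribosomal protein genes peaked in pool C in 10, in pool B in 28 and in pool A in 36 of 74, and respiratory complex I genes in 17, 14 and 2 of 33. With quantile normalization 3 of 76 (MRPL17, MRPL50 and MRPS17) were higher than total RNA in every pool, a share near the 2.63% of all genes. This did not hold across scalings, since 0 of 76 were higher in pool A than in total RNA in all 3. With quantile normalization 0 of 76 were lower in every pool, against 9.67%.

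MRPL12, which forms the factor-binding stalk and has been reported to bind the mitochondrial RNA polymerase, was higher in pool B than in total RNA by 0.88 ± 0.24 (adjusted p = 0.00561) with quantile normalization. MRPS12, the counterpart of the bacterial protein of the decoding centre, was higher by 0.84 in pool C than in pool A by its brightest probe (adjusted p = 0.000488), but its other probes gave 0.31 and -0.04 (adjusted p = 0.205 and 0.9), so the probes disagree. Against total RNA the brightest probe gave 0.58 (adjusted p = 0.011) and the others 0.35 and 0.26 (adjusted p = 0.186 and 0.42). The 3 genes of the S18 family, whose products occupy different places in the ribosome, had unlike profiles. MRPS18B was higher in pool C than in total RNA by 0.89 and MRPS18A by 0.77, while MRPS18C was called in none of the 6 comparisons with quantile normalization.

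The genes around these were read from lists of the same pathway. In all 3 scalings, 37.1% of all genes were higher and 12.2% lower in pool C than in pool A. Against total RNA these shares were 24.1% and 13.2%. Of 14 mitochondrial translation factors, 7 were higher and 0 lower in pool C than in pool A in all 3 scalings, and 8 higher and 1 lower against total RNA. Among them TUFM, the elongation factor that delivers aminoacyl-tRNA to the mitochondrial ribosome, was higher by 2.4 (adjusted p = 7.74e-08), TACO1, a translational activator of a cytochrome oxidase subunit, by 2.46 (adjusted p = 1.15e-07) and TSFM, the exchange factor of TUFM, by 2. Of 23 mitochondrial ribosome assembly factors, 12 were higher and 1 lower than in pool A, the lower one being the helicase DDX28 at -2.08 (4.24-fold lower, adjusted p = 5.95e-08). Some of the 23 were detected on few arrays, such as MTG2 on 1 of 4 in pool A and 0 of 4 in pool C. Of 10 transcription and nucleoid genes 6 were higher and 0 lower, TFAM, which packages mitochondrial DNA, by 1.87.

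Other lists divided differently. Of 74 cytosolic ribosomal protein genes, 1 was higher and 30 were lower in pool C than in pool A in all 3 scalings, with RPL23A at -2.59 (6.02-fold lower, adjusted p = 4.83e-09) and RPS7 higher at 2.05 (4.15-fold, adjusted p = 5.35e-07). Of 33 complex I genes, 19 were higher and 4 lower, from NDUFB8 at 2.16 (adjusted p = 1.02e-08) to NDUFC1 at -3.31 (adjusted p = 9.03e-09). NDUFC2, NDUFS1 and NDUFB4 were detected on 0 of 4 pool A arrays and on 0, 1 and 3 of 4 pool C arrays. NDUFB1 was detected on 4 of 4 in pool A and 0 of 4 in pool C. Of 30 import genes, 9 were higher and 8 lower, and the largest differences were those of the outer-membrane translocase genes TOMM5, TOMM6 and TOMM22, at -2.62, -2.57 and -2.61. The 9 TOMM genes tested were split, with 3 higher in all 3 scalings (TOMM34, TOMM40 and TOMM70, at 0.96, 1.36 and 0.8), 4 lower (these 3 and TOMM7, at -1.43) and 2 neither. The shares of all genes for this comparison are those given above, 37.1% higher and 12.2% lower. The lists were described by their counts, and a difference between lists was not tested.

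Of the 76 genes, 24 had more than 1 kept probe, and the probes of 20 of them had the same sign in pool C against pool A, 21 against total RNA and 23 against pool B. MRPL43 was the clearest exception. A probe annotated to a transcript variant of its own, detected on 12 arrays and on 2 of 4 pool C arrays, differed between pool C and pool A by -0.92 ± 0.26 (adjusted p = 0.00714), while the 2 probes annotated to another transcript record differed by 0.87 ± 0.16 (adjusted p = 0.000224) and 1.02 ± 0.16 (adjusted p = 7.47e-05). The 2 probes of MRPL22 differed in pool A against total RNA, at 0.59 ± 0.14 (adjusted p = 0.00227) and -1.02 ± 0.22 (adjusted p = 0.00149), so no direction is given for that gene. The 3 probes of MRPL11 gave -1.79, -1.87 and -1.92 in pool C against pool B.

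**Figure D4:**
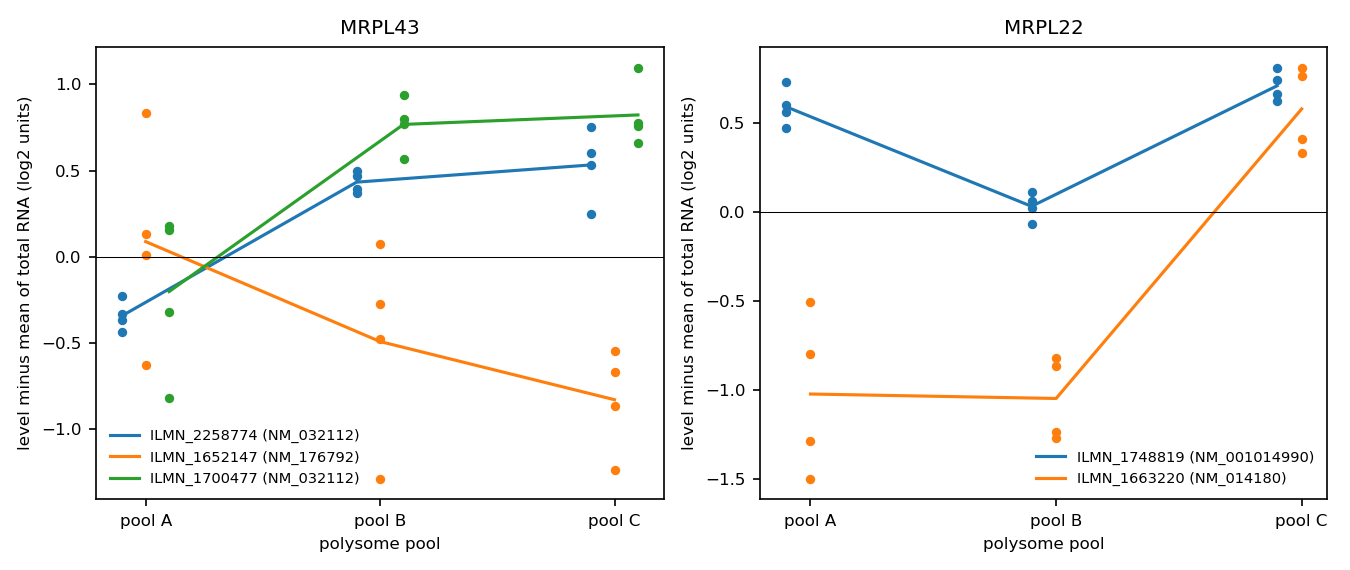
Log2 level of each probe of MRPL43 (3 probes) and MRPL22 (2 probes) in pools A, B and C, as the difference from the mean of total RNA. One MRPL43 probe falls in pool C where the other 2 rise, and the MRPL22 probes lie on opposite sides of total RNA in pool A, at 0.59 and -1.02.

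In the fit without a replicate block, no mitochondrial ribosomal protein gene was called changed after 4 h of dexamethasone: with limma, 0 of 76 passed in any of the 4 kinds of RNA. MRPL45 and MRPS31 were called higher in pool A in 1 alternative, the deposited values with a replicate block. Of all genes, 0.0886% were called higher and 0.0197% lower in total RNA, 0.63% and 0.246% in pool A, 0.0295% and 0% in pool B, and 0.0689% and 0% in pool C. At an unadjusted p under 0.05 there were 1, 5, 0 and 2 of 76 in total RNA and pools A to C, against 4.56%, 13%, 6.7% and 5.93% of all genes. The medians were -0.07, -0.02, 0 and -0.06, and the median standard error of 1 gene was 0.22. Changes of about that size were not detectable, and larger ones could also go uncalled. The coactivator gene PPARGC1A, valued at the end, differed by 0.86 ± 0.22 in pool B without a call (limma adjusted p = 0.321). Neither the response of the pools relative to total RNA nor that of pool C relative to pool A was called for any of the 76 or of all genes, with 0 and 2 of 76 at an unadjusted p under 0.05, against 1.41% and 5.76% of all genes.

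MRPL14, the counterpart of a bacterial protein at the subunit interface, had the lowest unadjusted p in total RNA. It stood at 10.38 and 9.94 at 4 h, against 10.9 and 10.67 at 0 h, a difference of -0.63 ± 0.22 (unadjusted p = 0.0141, limma adjusted p = 0.788). In pool A it stood at 10.07 and 9.94 at 4 h, against 10.81 and 10.28 at 0 h, a difference of -0.54 (adjusted p = 0.33), and in pools B and C the differences were -0.23 and -0.38 (adjusted p = 0.998 and 0.926). The 4 h arrays lay below the 0 h arrays in all 4 kinds of RNA, and non-overlap of 2 against 2 arrays was seen for 40.6% of all genes in total RNA, 38.5% in pool A, 31.8% in pool B and 33% in pool C.

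MRPL36, a small large-subunit protein with a bacterial counterpart, stood in pool C at 11.93 and 11.83 at 4 h, against 12.73 and 12.37 at 0 h, a difference of -0.67 ± 0.20 (unadjusted p = 0.00453, adjusted p = 0.406). The arrays did not overlap. MRPS25 had a response in pool C minus that in pool A of -0.86 ± 0.37 (unadjusted p = 0.0352, adjusted p = 0.85).

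When the 4 untreated X arrays were left out, each group at 0 h kept 1 array, assumed to vary like the others, and 0 of 76 genes were called in each dexamethasone comparison. An unadjusted p under 0.05 was then found for 1 in total RNA, 6 in pool A, 8 in pool B and 4 in pool C, against 5.83%, 14.8%, 14% and 7.07% of all genes. In the same fit pool C against total RNA had 42 higher and 4 lower, against 19.2% and 19.8% of all genes, and pool C against pool A 42 and 12, against 37.1% and 24.9%. Pool B against total RNA had 29 higher and 10 lower, against 21% and 29.1%, and pool A against total RNA 15 and 12, against 21.8% and 32.7%. Pool B against pool A had 26 and 9, against 18.1% and 15.1%, and pool C against pool B 35 and 15, against 30% and 21.8%. The genes called with all arrays that kept their call and direction were 42 of 51 higher and 4 of 5 lower in pool C against total RNA, and 41 of 45 and 12 of 12 in pool C against pool A, and 0 of 76 were called in the opposite direction in any comparison. Among the genes valued above, MRPS12 and MRPS30 lost their call in pool C against total RNA, at 0.53 and 0.31 (adjusted p = 0.0549 and 0.169).

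**Figure D5:**
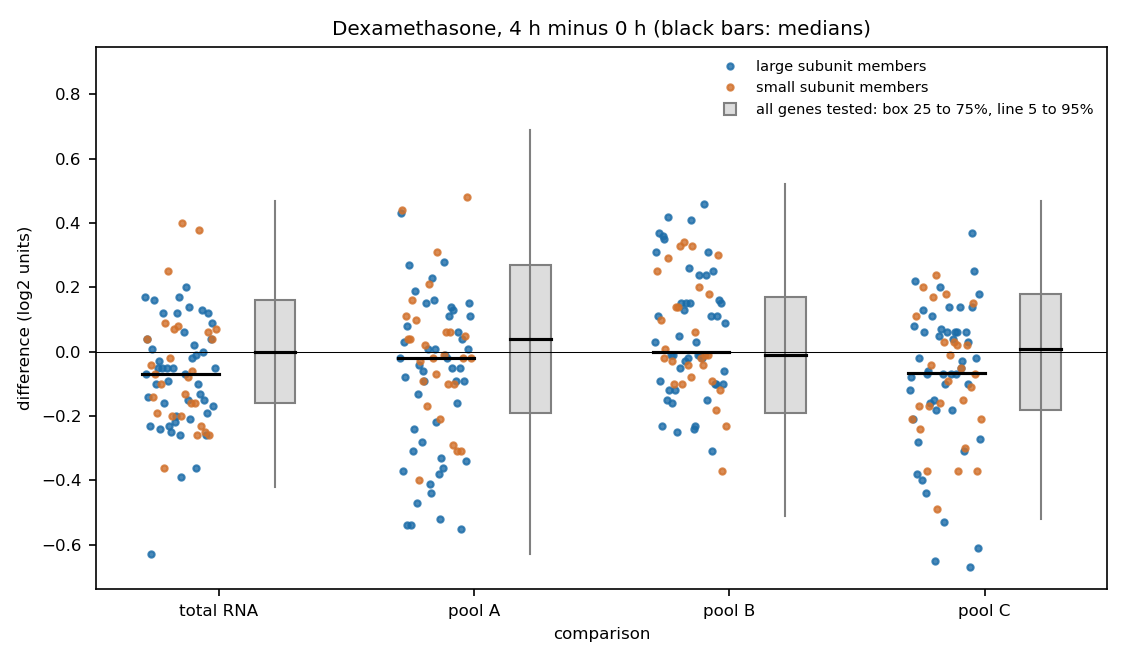
Log2 differences of the 76 genes between 4 h and 0 h of dexamethasone in total RNA and each pool, with dots, boxes and lines as in the plot of pool comparisons. Medians of the 76 genes lie between -0.07 and 0, and none of the 76 passed the test in this fit, which has no replicate block.

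The antisense gene MRPL20-AS1 was detected on all 16 arrays and stood at 10.42, 9.99, 10.09 and 10.3 in pool C, against 11.88, 11.94, 11.82 and 11.42 in pool A. The groups did not overlap, and the difference was -1.56 ± 0.15 (2.95-fold lower, adjusted p = 7.2e-07). MRPL20 itself was -0.55 in the same comparison with quantile normalization. The pseudogene MRPS31P5 was detected on 0 of 4 pool C, 3 of 4 pool B and 2 of 4 pool A arrays, against 3 of 4 total RNA arrays, so no difference is given for it, and MRPL42P5 was detected on 2 arrays. Probes for pseudogenes can also bind the transcripts of their parent genes.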

How the data were processed

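RNA from 16 Illumina arrays was analysed. The deposited non-normalized table holds, per the file headers, linear intensities with detection p-values of every probe on each array, and the deposited value table holds log2 values of which the sources used here name neither the background correction nor the scaling nor the centring; its column medians lie between 7.21 and 7.41. Per the labels' protocols, RNA was converted to biotin-labelled cDNA with an Ambion Illumina kit. Here, intensities were background-corrected with limma's nec (normexp on detection p, offset 16), quantile-normalized and set on the log2 scale (limma 3.58.1, R 4.3.3). Probes detected at p under 0.01 on at least 2 arrays were kept (17269 of 47323). The platform annotation named 30121 probes, 30113 with 1 symbol and 8 with several, and 30074 matched the RefSeq-based gene table. Each of 10163 genes was represented by its brightest probe on average. One limma model of 8 group means (8 residual and 5.36 prior degrees of freedom) gave 12 comparisons. Median scaling, the deposited table, other offsets, filters and probe rules, replicate blocks and each array left out were tried, and the scripts were tested on simulated data. The precision is limited by the number of arrays. Genes were named by a rule: in each comparison the members past the threshold with non-overlapping arrays and the largest differences (the top 10 each way for pool C against pool A and for pools against total RNA, 6 elsewhere; the 3 lowest p where fewer than 3 passed), plus MRPL12, MRPS12, MRPL36, MRPL41, MRPS30 and the MRPS18 genes, plus genes whose probes disagreed in sign past the threshold, and up to 4 members of other lists. The text values only some of the genes that this rule picked. Members and lists were chosen with earlier results of these data known. The call in all 3 scalings and the split by bacterial number range were added after seeing the data. Sequences are from RefSeq on GRCh38.p14.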

Additional observations from a re-analysis of the deposited data

How the results depend on the processing

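Shares of all genes with median scaling and in the deposited table are given above with each comparison among pools and total RNA. For the replicate block, single times, compared kinds and single arrays left out, no share of all genes is given. Those counts show only how the calls moved with the fit and are not read as a result about these genes. With median scaling, pool A against total RNA had 0 higher and 50 lower, pool B against total RNA 25 lower, pool C against total RNA 3 lower, pool C against pool A 69 higher and 2 lower, pool B against pool A 4 lower, and pool C against pool B 7 lower. The deposited table gave 10 higher and 26 lower, 27 lower, 3 lower, 6 lower, 17 lower and 8 lower in the same comparisons. With the replicate block on the deposited table these were 37 lower, 29 lower, 3 lower, 6 lower, 20 lower and 8 lower, and 2 genes (MRPL45 at 0.77 and MRPS31 at 0.67) rose with dexamethasone in pool A; the cause was not tested. By column prefix and by number alike, 27 of 28 pairs of deviations correlated above 0.1 (medians 0.25 and 0.31) and 1 did not (-0.08 and -0.06). This fell short of the requirement that every pair exceed 0.1, so the main fit has no block. The pairs are a hint of a shared batch from the data. That 16 of 16 arrays correlated best with their own prefix adds nothing to it, since deviations of the 2 arrays of a group mirror each other. At 0 h only, pool A against total RNA had 11 higher, and pool B against pool A 19 higher and 6 lower. At 4 h only, pool B against total RNA had 7 lower, pool C against total RNA 32 higher and pool B against pool A 6 lower. With only the arrays of the kinds compared, pool B against pool A had 7 lower. Leaving out 1 array gave 13 to 20 higher and 12 to 17 lower for pool A, 28 to 36 and 8 to 15 for pool B, and 40 to 51 and 4 to 6 for pool C against total RNA, 44 to 47 and 10 to 12 for pool C against pool A, 31 to 36 and 6 to 12 for pool B against pool A, 33 to 37 and 16 to 21 for pool C against pool B, and 0 for dexamethasone. The low counts came without total RNA 0 h X (9), total RNA 4 h X (9) or pool B 4 h N (8) for pool B against total RNA, and without pool B 0 h N (7) or pool B 4 h N (6) for pool B against pool A. Of single-gene values, 6234 kept their call and direction or were uncalled in both fits, whatever their sign. With the direction kept, 140 lost their call and 56 gained one. The other 26 reversed, changing sign with a call in either fit. With median scaling these were MRPL42 -0.13, MRPL17 -0.1, MRPL22 -0.01, MRPL1 -0.39, MRPS30 -0.34, MRPS18A -0.79 and MRPS18B -0.38 in pool A against total RNA, MRPL11 0.28, MRPL42 0.64, MRPL50 0.78, MRPL51 0.02, MRPL34 0.73, MRPL36 0.77 and MRPS30 1.27 in pool C against pool A, MRPS18B 0.02 in pool B against pool A and MRPS18C 0.48 in pool C against pool B. MRPS18C was 0.43 in the deposited table with the block. In the deposited table, with or without the block, MRPS18B was -0.41 in pool B against total RNA, and MRPL50, MRPL34 and MRPS30 were 0.05, 0.09 and 0.49 in pool C against pool A. The mean over probes gave MRPL22 -0.22 in pool A against total RNA. Protein length was not analysed here.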

Other observations

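Of 11 regulators of mitochondrial biogenesis, 6 were higher and 0 lower in pool C than in pool A in all 3 scalings, against 37.1% and 12.2% of all genes, and no difference from the other genes was tested. Some were near the detection limit. NRF1 was detected on 1 of 4 pool A and 0 of 4 pool C arrays, PPARGC1B on 0 and 1, and GABPA on 0 and 4. YY1, a zinc-finger transcription factor, was higher in pool C than in pool A by 2.09 ± 0.42 (4.25-fold, limma adjusted p = 0.00054). GABPB1, a subunit of the ETS-type nuclear respiratory factor GABP, was higher by 1.17 ± 0.15 (2.25-fold, adjusted p = 9.21e-06). PPRC1, a coactivator related to PPARGC1A, was lower in pool C than in total RNA by -1.15 ± 0.19 (2.22-fold, adjusted p = 0.00033).

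PPARGC1A, a transcriptional coactivator of mitochondrial biogenesis, stood in pool A at 7.99 and 7.72 at 4 h, against 6.92 and 6.65 at 0 h, a difference of 1.06 ± 0.22 (2.09-fold, adjusted p = 0.0402). Without the 4 untreated X arrays it was 0.93 ± 0.29 (adjusted p = 0.192) and no longer passed. In total RNA, pool B and pool C the differences of PPARGC1A were 0.41, 0.86 and 0.69 (adjusted p = 1, 0.321 and 0.483), and 0.42, 0.79 and 0.64 without those arrays (adjusted p = 0.951, 0.279 and 0.697).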
